A study of Mus musculus with 12 samples.

Results

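The 2-cell-like programme is the set of genes that mouse embryos switch on at the 2-cell stage and that a small share of embryonic stem (ES) cells express at any time. Described here are 10 of its genes outside the Zscan4 family, namely the deubiquitinase genes Usp17la, Usp17lb, Usp17lc, Usp17ld and Usp17le, the genes Tcstv1 and Tcstv3, the zinc finger gene Zfp352, BB287469, which belongs to a family related to the translation factor gene Eif1a, and AA623943. They were taken by symbol from a list of 10 names, out of 54446 gene identifiers in the files, and the names were selected on values of these same libraries, in which the genes were high in DNMT3ABKO under mTORi. Their differences between groups are therefore given as descriptions, with no p-value. All 10 had a mean of at least 1 TPM (transcripts per 1000000 in a library, a level per unit of transcript length) over the 12 libraries and so were among the 15727 genes tested. They passed that filter through the DNMT3ABKO libraries alone, since every KH value was below 1 TPM.

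The study followed mouse ES cells as mTOR inhibition with INK128 (mTORi), a treatment that slows growth into a dormant state resembling embryonic diapause, was applied for 0, 72 or 144 h. Total RNA after ribosomal RNA removal was sequenced from 2 lines, each with 2 libraries a time point. The labels give the lines as E14 KH, the control, and E14 DNMT3ABKO, which lacks the enzymes Dnmt3a and Dnmt3b that set new DNA methylation. The study's methods describe wild-type KH2 cells and Dnmt3a/b double knockout cells grown on mitomycin-treated feeder cells, with viable cells sorted for RNA. There was 1 line for each genotype and no untreated culture at 72 or 144 h, so the genotype cannot be told apart from the line, nor mTORi from time in culture. The study describes its experiments in general as repeated independently, with the time points of a replicate handled side by side. With 1 line a genotype, p-values measure the spread between these 2 libraries a group and not that between lines.

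The libraries listed 15178 to 15811 genes at 1 TPM or more, and read depth is not known from TPM. TPM gives the share of a gene in its library, so a rise over time need not be a rise in RNA per cell. The study, using spike-in scaling, reports lower global transcription under mTORi in wild-type and Dnmt3a/b knockout cells. Replicates correlated at r = 0.985 (log2 values, DNMT3ABKO at 0 h) to 0.996. Dnmt3b transcript was 142.3 and 147.0 TPM in KH at 144 h against 12.7 and 13.0 TPM in DNMT3ABKO (log2 difference -3.39, limma adjusted p = 7.25e-10). Dnmt3a was 76.3 and 143.6 TPM against 21.9 and 16.9 TPM (log2 difference -2.39, SE 0.28, limma adjusted p = 2.05e-04), so both went the way of the labels. The ES cell marker sum (10 genes, among them Pou5f1, Nanog and Sox2) was 4481 to 7067 TPM over the 12 libraries. The feeder fibroblast marker sum (16 genes) fell from 3160 ± 229.4 to 654.3 ± 73.1 TPM (SD, n = 2) in KH and from 3450 ± 236.2 to 488.4 ± 11.9 TPM in DNMT3ABKO between 0 and 144 h. Levels at 0 h thus came with more fibroblast RNA than levels at 144 h in both lines.

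In the embryo these genes are transcribed when the zygotic genome is first read out, together with certain endogenous retroviruses, and they are silenced as development goes on. In ES cells the transcription factor Dux can switch the programme on, Dppa2 and Dppa4 act upstream of Dux, and chromatin repressors hold it down. The Usp17l genes encode enzymes that remove ubiquitin from proteins. Zfp352 encodes a DNA-binding zinc finger protein and is widely used as a marker of the 2-cell stage.

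In the mm10 coordinates the 5 Usp17l genes lay on chromosome 7 at 2 places. Usp17ld (ENSMUSG00000057321.2; chr7:103249737-103252505, minus strand) and Usp17lc (ENSMUSG00000058976.4; chr7:103415072-103419880, plus strand) formed one place. Usp17le (ENSMUSG00000043073.10; chr7:104768049-104777470, minus strand), Usp17lb (ENSMUSG00000062369.2; chr7:104840257-104842603, minus strand) and Usp17la (ENSMUSG00000054568.7; chr7:104857009-104862667, plus strand) formed the other. Tcstv1 (ENSMUSG00000096284.2; chr13:119893388-119894785, minus strand) and Tcstv3 (ENSMUSG00000095821.2; chr13:120316878-120318178, plus strand) lay on chromosome 13. Zfp352 (ENSMUSG00000070902.5) was at chr4:90218820-90225702 on the plus strand, BB287469 (ENSMUSG00000079031.1) at chr12:87816577-87820676 on the plus strand and AA623943 (ENSMUSG00000081478.1), annotated as an unprocessed pseudogene, at chr11:94812619-94813348 on the minus strand.

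Of the 10 genes, 7 had an entry in the RefSeq promoter table (GRCm38.p6, 250 bases before to 50 bases after the annotated start). RefSeq placed some starts elsewhere than the coordinates above. The Usp17lc window (chr7:103416446-103416745) lay inside the gene and the AA623943 window (chr11:94817602-94817901) lay apart from it. Usp17la, Usp17lb, Usp17lc and Usp17ld shared a stretch of 130 bases that was 93.8 to 96.9% identical in each pair. Its first 29 bases were the same in all 4 and occurred in no other promoter of the table. The stretches are shown because these 4 genes rose side by side and the stretches can be compared letter by letter. They begin at -141 (Usp17la), -126 (Usp17lb), -183 (Usp17lc) and -205 (Usp17ld) from the annotated starts, so the starts themselves do not line up. Capitals mark each CG, the pair of bases that DNA methyltransferases methylate, and each TATAAA.
Usp17la, chr7:104856875-104857004 (plus strand): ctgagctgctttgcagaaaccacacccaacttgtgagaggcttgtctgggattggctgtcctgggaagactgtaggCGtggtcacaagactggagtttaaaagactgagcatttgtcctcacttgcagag
Usp17lb, chr7:104842580-104842709 (minus strand): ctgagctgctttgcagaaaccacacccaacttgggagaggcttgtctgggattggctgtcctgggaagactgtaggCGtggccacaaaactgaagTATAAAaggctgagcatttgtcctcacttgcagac
Usp17lc, chr7:103416513-103416642 (plus strand): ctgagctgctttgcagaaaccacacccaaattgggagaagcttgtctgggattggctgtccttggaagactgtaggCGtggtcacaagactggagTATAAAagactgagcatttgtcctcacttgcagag
Usp17ld, chr7:103252581-103252710 (minus strand): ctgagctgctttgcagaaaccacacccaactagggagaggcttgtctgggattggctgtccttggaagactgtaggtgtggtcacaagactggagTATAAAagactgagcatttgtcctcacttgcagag

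The whole 300-base promoters held few CGs. There was 1 in each of Usp17la, Usp17lb and Usp17lc and none in Usp17ld, with 2 in Zfp352, 3 in AA623943 and 4 in BB287469, against a median of 7 over 32851 promoters, of which 38.0% held 4 or fewer. TATAAA, searched on both strands, was found in Usp17lb (at -31 from the annotated start), Usp17lc (-88), Usp17ld (-110) and AA623943 (-249), and in 13.6% of all promoters. GATTNAATC, the core of the Dux motif, was found in none of the 7 windows and in 0.3% of all promoters. TGCACAC, searched as a Zscan4-type word, was found in none of the 7 and in 4.4% of all. The 4 stretches above are near-copies of each other and do not count as independent occurrences.

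The 250 bases before the start of Zfp352 had another layout and are shown for their repeat. The 12-base word in capitals, AGGACAACACAC, occurred 7 times in a row of near-identical units, and 1.72% of promoters held any 12-base word that often.
Zfp352, chr4:90218570-90218819 (plus strand, GRCm38.p6): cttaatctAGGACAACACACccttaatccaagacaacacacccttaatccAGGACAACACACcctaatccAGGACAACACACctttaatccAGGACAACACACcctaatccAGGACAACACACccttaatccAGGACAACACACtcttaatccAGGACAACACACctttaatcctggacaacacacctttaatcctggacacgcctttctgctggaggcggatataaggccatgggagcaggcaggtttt

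Near-identical copies limit how well a level belongs to 1 gene. Usp17lc and Usp17ld shared 98.4% of their coding bases, Tcstv1 and Tcstv3 93.6%, and the other pairs of Usp17l genes 78.4 to 90.8%. The share of 50-base words found in no other annotated transcript was 92.9% for Zfp352, 84.3% for AA623943, 83.2% for Tcstv1 and 68.6% for Tcstv3. It ran from 48.9% (Usp17ld) to 79.9% (Usp17la) in the Usp17l family. For BB287469 it was 3.4%, because 94.3% of its words were also in Gm4027, so the values of BB287469 cannot be separated from those of its copies. The sums over Usp17l and over Tcstv are given beside the single genes, but they too depend in part on how reads were placed, because TPM divides by a length that differs between members and because copies outside the sums share words with them.

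All 10 genes were near 0 in KH and rose at both steps of mTORi in DNMT3ABKO. The highest KH value of any of them was 0.669 TPM (Usp17le, 144 h) and the lowest DNMT3ABKO value was 0.841 TPM (AA623943, 0 h), so the lines did not overlap at any time. Summed over the 10, KH libraries held 0.640 ± 0.118, 0.428 ± 0.031 and 2.78 ± 0.14 TPM (SD, n = 2) at 0, 72 and 144 h. DNMT3ABKO libraries held 19.2 ± 0.2, 54.6 ± 1.4 and 267.8 ± 12.9 TPM. The sum was 29.9 times as high in DNMT3ABKO as in KH at 0 h, 127.5 times at 72 h (119.2 to 136.8 over the pairs of libraries) and 96.2 times at 144 h (89.8 to 103.1), so this ratio was highest at 72 h, when the KH sum was lowest. In bulk RNA, more cells in a 2-cell-like state and more RNA in each such cell cannot be told apart.

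**Figure D1:**
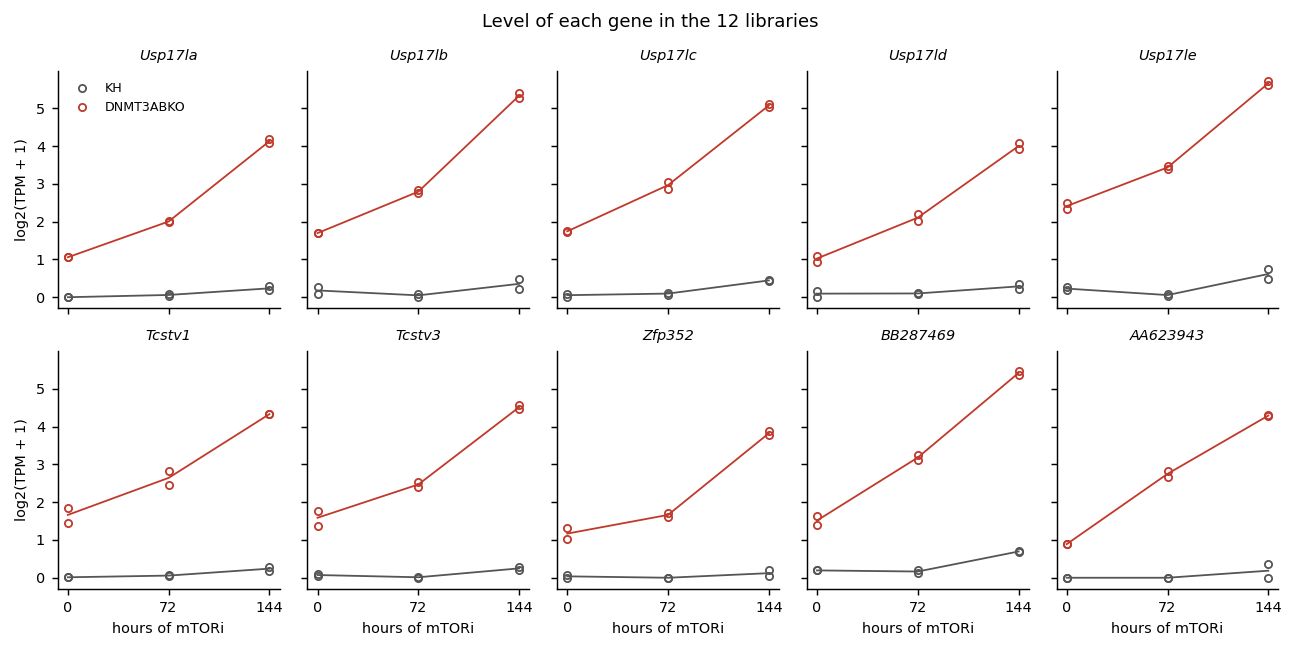
Level of each of the 10 genes against hours of mTORi. The vertical axis is log2(TPM + 1), open circles are single libraries (2 a group), lines join the group means, grey is KH and red is DNMT3ABKO. Every red circle lies above every grey circle in all 10 panels, and the red lines climb at both steps.

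The Usp17l family carried the largest part of this RNA. The Usp17l sum in DNMT3ABKO was 10.8 and 11.2 TPM at 0 h, 28.8 and 29.0 TPM at 72 h, and 147.3 and 159.1 TPM at 144 h. In KH it was 0.449 and 0.371, then 0.239 and 0.277, then 1.29 and 1.84 TPM. Both lines were thus highest at 144 h. The Usp17l sum was 26.9 times as high in DNMT3ABKO at 0 h, 111.9 times at 72 h and 97.7 times at 144 h.

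Usp17le was the most abundant member of the family. It stood at 4.04 and 4.60 TPM in DNMT3ABKO at 0 h, 10.2 and 9.42 TPM at 72 h, and 47.7 and 51.4 TPM at 144 h. In KH it was 0.202 and 0.142 TPM at 0 h, 0.0568 and 0.0236 TPM at 72 h, and 0.395 and 0.669 TPM at 144 h. The KH values dipped at 72 h without overlap and were highest at 144 h.

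Usp17lb was second in the family at 144 h and behind Usp17lc at 0 and 72 h. It stood at 2.25 and 2.23 TPM at 0 h, 5.76 and 6.11 TPM at 72 h and 37.7 and 41.0 TPM at 144 h in DNMT3ABKO. Its KH libraries were between 0, in 1 library at 72 h, and 0.397 TPM. The mean at 144 h was 6.64 times that at 72 h (6.18 to 7.12 over the 4 pairs of libraries), and all of these ratios were above all those of 8 of the other 9 genes.

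Usp17lc and Usp17ld, the most alike pair in coding sequence, differed in level. Usp17lc was 2.30 and 2.40 TPM at 0 h, 6.29 and 7.35 TPM at 72 h, and 32.0 and 33.5 TPM at 144 h in DNMT3ABKO. Usp17ld was 1.15 and 0.923, then 3.59 and 3.02, then 14.1 and 16.0 TPM in the same libraries. Usp17lc was above Usp17ld in every DNMT3ABKO library, although reads from words common to both cannot be placed.

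Usp17la was listed at 0 in both KH libraries at 0 h and at 1.09 and 1.08 TPM in DNMT3ABKO. It went to 2.95 and 3.07 TPM at 72 h and 15.8 and 17.2 TPM at 144 h in DNMT3ABKO, against 0.217 and 0.137 TPM in KH at 144 h. Its rise over 144 h in DNMT3ABKO, 15.3 times, was within the range of the family, which ran from 11.5 times (Usp17le) to 17.6 times (Usp17lb).

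The make-up of the family changed little beside the rise of its sum. Usp17le gave 39.1% of the sum in DNMT3ABKO at 0 h, 34.0% at 72 h and 32.4% at 144 h (means of 2 libraries). The share of Usp17lb went from 20.3% and 20.6% to 25.7% over the same times. Usp17lc gave 21.3, 23.6 and 21.4%, Usp17la 9.81, 10.4 and 10.8%, and Usp17ld 9.40, 11.5 and 9.79%.

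**Figure D2:**
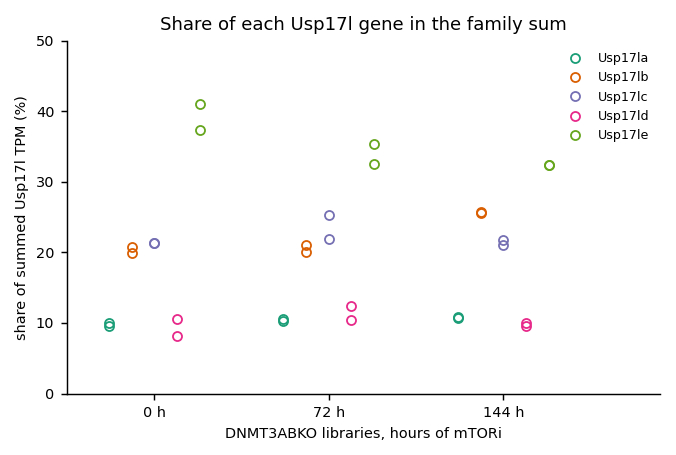
Share of each Usp17l gene in the family's summed TPM (%) in the DNMT3ABKO libraries at 0, 72 and 144 h of mTORi. Usp17le held the largest share at all 3 times, with means of 39.1, 34.0 and 32.4%, and Usp17lb rose to 25.7% at 144 h.

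Tcstv1 and Tcstv3 were low in KH and rose in DNMT3ABKO at near-equal levels. Tcstv1 was 2.61 and 1.73 TPM in DNMT3ABKO at 0 h, 4.43 and 6.06 TPM at 72 h, and 19.2 and 19.1 TPM at 144 h. In KH it was 0.00592 and 0.0114 TPM at 0 h, 0.0528 and 0.0281 TPM at 72 h, and 0.225 and 0.140 TPM at 144 h. Its groups followed each other in both lines without overlap.

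Tcstv3 was 2.41 and 1.60 TPM at 0 h, 4.27 and 4.81 TPM at 72 h, and 21.1 and 22.6 TPM at 144 h in DNMT3ABKO. In KH it was 0.0739 and 0.0285 TPM, then 0 and 0.0177 TPM, then 0.155 and 0.220 TPM. The same DNMT3ABKO library was the higher for both Tcstv genes at 0 h. The Tcstv sum was 4.17 ± 1.19, 9.79 ± 1.54 and 41.0 ± 1.0 TPM (SD, n = 2) in DNMT3ABKO and 0.0599, 0.0493 and 0.370 TPM in KH. The Tcstv sum was 69.7 times as high in DNMT3ABKO at 0 h, 198.6 times at 72 h (164.7 to 237.6 over the pairs of libraries) and 110.8 times at 144 h (106.0 to 115.9).

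Zfp352 was the gene with the smallest early change. It stood at 1.03 and 1.47 TPM in DNMT3ABKO at 0 h, 2.28 and 2.05 TPM at 72 h, and 12.6 and 13.7 TPM at 144 h. In KH it was 0.0520 TPM and 0 at 0 h, 0 in both libraries at 72 h, and 0.144 and 0.0313 TPM at 144 h. The ratio of 72 to 0 h in DNMT3ABKO was 1.74 (1.40 to 2.22 over the pairs of libraries), wholly below that of 6 of the other 9 genes. The ratio of 144 to 72 h was 6.07 (5.53 to 6.67), wholly above that of 6 of them.

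BB287469 was 1.61 and 2.10 TPM in DNMT3ABKO at 0 h, 8.53 and 7.62 TPM at 72 h, and 40.0 and 43.7 TPM at 144 h. In KH it was 0.143 and 0.146 TPM, then 0.158 and 0.0844 TPM, then 0.592 and 0.646 TPM. Its early ratio in DNMT3ABKO was 4.35 (3.62 to 5.30), wholly above that of 7 of the other genes.

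AA623943 was listed at 0 in 5 of the 6 KH libraries and at 0.276 TPM in the other, at 144 h. In DNMT3ABKO it was 0.841 and 0.864 TPM at 0 h, 5.32 and 6.13 TPM at 72 h, and 18.4 and 18.8 TPM at 144 h. Its early ratio of 6.72 (6.16 to 7.29) was wholly above that of all 9 other genes. Its late ratio of 3.25 (3.01 to 3.53) was wholly below that of 8 of them.

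The 10 genes thus shared a direction but not the timing of the rise in DNMT3ABKO. The ratio of 72 to 0 h ran from 1.74 to 6.72 with a median of 2.72, that of 144 to 72 h from 3.25 to 6.64 with a median of 4.94, and that of 144 to 0 h from 8.83 (Tcstv1) to 22.6 (BB287469) with a median of 14.2. Over 35 of the 36 genes of the 2-cell list described further on, those at 1 TPM or more in DNMT3ABKO at 144 h, the medians of the same 3 ratios were 2.85, 4.55 and 15.6 (34 genes where 0 h was the base). That condition on the 144 h level raises the ratios that include 144 h. The Zscan4 sum (6 genes) was 75.0, 179.8 and 862.0 TPM in DNMT3ABKO, with ratios of 2.40 and 4.80, and 2.79, 0.958 and 10.1 TPM in KH. Duxf3, the gene of the Dux transcription factor, had an early ratio of 6.77 (5.52 to 8.44) and a late ratio of 2.42 (2.21 to 2.66), the early one overlapping that of AA623943.

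**Figure D3:**
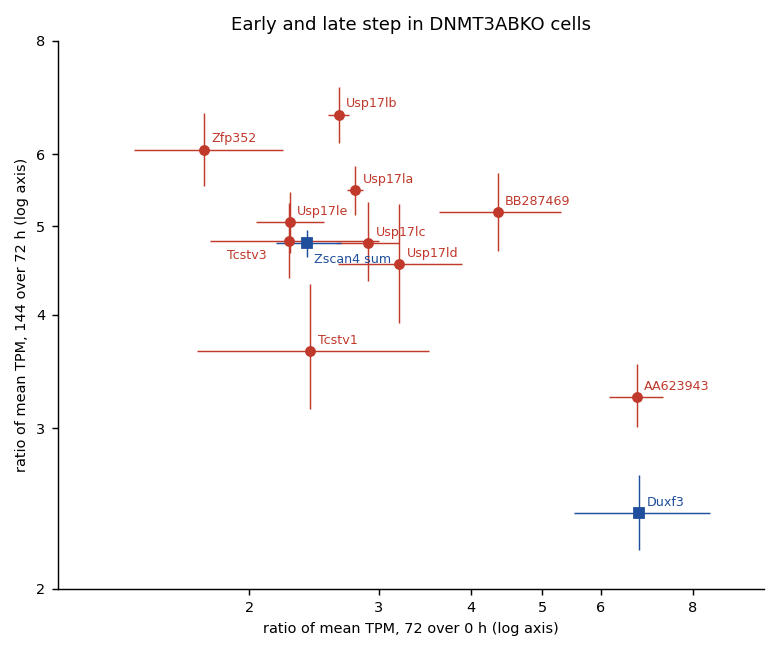
Ratio of mean TPM at 144 h to 72 h against the ratio at 72 h to 0 h in DNMT3ABKO, both axes logarithmic. Red circles are the 10 genes, blue squares Duxf3 and the Zscan4 sum, and bars reach the lowest and highest ratio over the 4 pairs of libraries. AA623943 and Duxf3 sit at the lower right (early ratios 6.72 and 6.77) and Zfp352 at the upper left (early ratio 1.74).

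At 144 h in DNMT3ABKO the mean levels ran from 49.6 TPM (Usp17le) through 41.9 (BB287469), 39.4 (Usp17lb), 32.7 (Usp17lc), 21.9 (Tcstv3), 19.1 (Tcstv1), 18.6 (AA623943), 16.5 (Usp17la) and 15.0 (Usp17ld) to 13.2 TPM (Zfp352). Libraries overlapped between BB287469 and Usp17lb and between Usp17la and Usp17ld. All other neighbours in this order were apart. At 0 h the order was Usp17le (4.32 TPM), Usp17lc (2.35), Usp17lb (2.24), Tcstv1 (2.17), Tcstv3 (2.01), BB287469 (1.86), Zfp352 (1.25), Usp17la (1.08), Usp17ld (1.03) and AA623943 (0.853 TPM). BB287469 and AA623943 had moved up the order by 144 h and Zfp352 down to its end. At 0 h, however, libraries overlapped between neighbours from Usp17lb to BB287469 and from Zfp352 to Usp17ld. The starting ranks of BB287469 and Zfp352 were therefore not distinct.

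Both DNMT3ABKO libraries were above both KH libraries for 10 of 10 genes at each time, where 17.0, 30.1 and 29.7% of all tested genes were so at 0, 72 and 144 h. In DNMT3ABKO, 10 of 10 were higher at 72 than at 0 h without overlap and 10 of 10 higher at 144 than at 72 h, against 44.6 and 26.7% of all tested genes. The median difference between lines on the log2(TPM + 1) scale, which understates changes of low genes, was 1.41, 2.66 and 4.19 at 0, 72 and 144 h, against -0.05, -0.04 and -0.04 over all tested genes. In DNMT3ABKO the median change was 1.05 from 0 to 72 h and 3.16 from 0 to 144 h, against 0.12 and 0.05 over all.

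In the limma fit across all tested genes (adjusted p under 0.05) the 10 genes were called higher in DNMT3ABKO at 0, 72 and 144 h, where 4.92, 9.26 and 11% of all genes were. All 10 were called higher within DNMT3ABKO at 72 over 0 h, 144 over 0 h and 144 over 72 h, against 34.3, 31.4 and 8.81% of all genes. The change from 0 to 72 h was called larger in DNMT3ABKO than in KH for 9 of 10, Zfp352 being the exception (log2 difference of the changes 0.54, SE 0.18), against 3.38% of all genes. The count was 7 with a replicate block and 3 with a pseudocount of 0.1 TPM. The change from 0 to 144 h was called larger for 10 of 10, against 4.89%. Since the genes were chosen by these contrasts and passed the filter through DNMT3ABKO, nothing is read from the counts.

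In KH the sum over the 10 genes was also highest at 144 h, with every single value below 1 TPM. Both libraries at 144 h were above both at 0 h for 7 of the 10 genes (42.4% of all tested genes) and above both at 72 h for 9 of 10 (28.7%). The Usp17l sum at 144 h was 3.83 times that at 0 h (2.88 to 4.97 over the pairs of libraries), and the Tcstv sum 6.18 times. By limma, 3 of 10 genes were called higher at 144 than at 0 h, which is near the share of all genes (27.4%). Also 3 of 10 were called higher at 144 than at 72 h (7.24%). At 72 against 0 h, limma called 0 of 10, with 0 at an unadjusted p under 0.05, where 28.3% of all genes were called higher. With a pseudocount of 0.1 TPM both counts were 7 of 10, and with a replicate block they were 3 and 2. The counts of 3 rested on single libraries, falling to 1 without KH replicate 2 at 0 h and to 0 without KH replicate 2 at either 72 or 144 h. Of the 60 KH values, 12 were listed at 0, and at such levels a few reads may decide a value.

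A list of 36 further genes of the 2-cell programme was read out beside the 10. It held the Eif1a-like and Tcstv-like copies, the Tdpoz and Pramef families, Duxf3, Sp110, Ubtfl1, Arg2 and others, and 29 were tested, while 7 (AF067063, Gm20765, Gm10264, Gm4340, Tdpoz1, Tdpoz2 and Tdpoz5) were under the filter. In DNMT3ABKO against KH, 22 were higher and 1 lower at 0 h (all genes 4.92 and 4.14%), and 28 higher and 1 lower at 144 h (11 and 15.5%). Over 144 h in DNMT3ABKO 28 rose and none fell (31.4 and 26.2%), and the rise was larger than in KH for 28 (4.89%) and smaller for none (3.70%). The list's median difference at 144 h was 4.21. Like the 10 genes, low genes of this list passed the filter through DNMT3ABKO, and the list was drawn up with results of these libraries known.

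Copies made up part of this list. The 12 tested genes that share a 50-base word with one of the 10 were all higher at 144 h. Of the 17 that share none, 16 were higher and 1 was lower. The exception was Pramef8, a gene of the PRAME family (log2 difference -0.37, adjusted p = 0.0356 by limma, a call lost with a replicate block and without any of the 4 libraries at 144 h), whose change with mTORi was not called different between lines (-0.12, adjusted p = 0.407).

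The largest differences in the list were those of Gm5662 (log2 difference 5.77, SE 0.14, limma adjusted p = 1.23e-09), Gm2016 (5.51), Gm2056 (5.35) and Gm5039 (5.25), of the Eif1a-like group, and Gm21761 (5.47) and Gm20767 (5.36). Gm5662 was at 4.98, 22.7 and 119.5 TPM in DNMT3ABKO at 0, 72 and 144 h and at 0.346, 0.098 and 1.20 TPM in KH. In KH, 9 genes of the list rose and 4 fell over 144 h (27.4 and 23.9% of all genes). Those that fell were Pramel6 (-1.05, adjusted p = 2.25e-04), Pramel7 (-0.97, adjusted p = 1.92e-04), Ddit4l and Pramef8, and those that rose included Gm2016 (0.75), Gm8300 (0.73), Gm5662 (0.71) and Gm2022 (0.60).

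**Figure D4:**
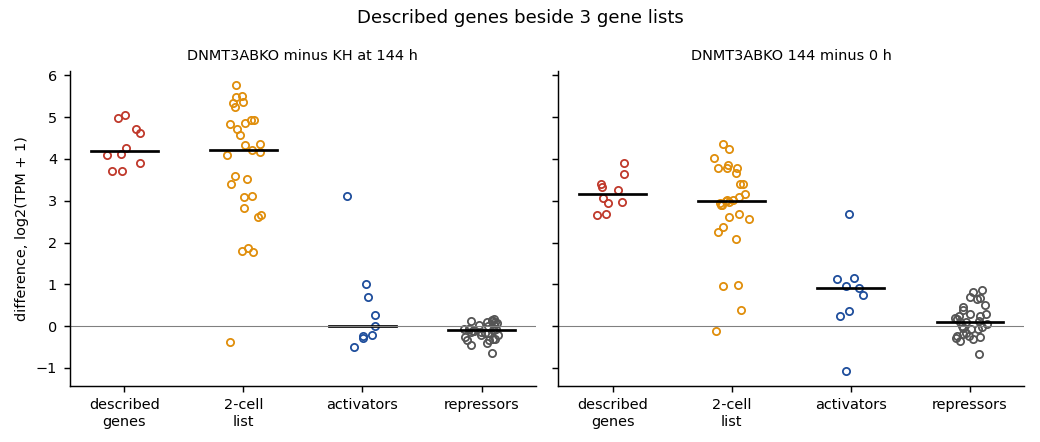
Log2 differences of the 10 described genes, the 2-cell list, the activators and the repressors, with 1 point a gene and bars at the medians. The left panel is DNMT3ABKO minus KH at 144 h and the right panel 144 minus 0 h in DNMT3ABKO, both on the log2(TPM + 1) scale. The first 2 groups sit far above 0 (medians 4.19 and 4.21 on the left), while the repressors sit near 0.

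Among 14 listed activators of the programme, 9 were tested, and Obox1, Obox2, Obox3, Obox5 and Obox6 were under the filter. Duxf3 was 0.612 and 0.460 TPM in DNMT3ABKO at 0 h, 3.38 and 3.88 TPM at 72 h, and 8.56 and 9.00 TPM at 144 h, against 0.177 and 0.083 TPM in KH at 144 h. Its difference between lines was 0.61 at 0 h (SE 0.11, limma adjusted p = 0.00811) and 3.11 at 144 h (adjusted p = 1.36e-08). Its change over 144 h was larger in DNMT3ABKO by 2.51 (SE 0.16, adjusted p = 3.7e-06), and in KH it was 0.17 (adjusted p = 0.243). With a pseudocount of 0.1 TPM the change of Duxf3 in KH was 1.08 and was called, and its difference at 0 h was not called in a fit of these 2 groups alone. No KH value of Duxf3 was above 0.177 TPM, so it passed the filter through DNMT3ABKO alone. Duxf3 is also of the 2-cell list, drawn up with results of these libraries known, so its p-values are descriptions.

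Nelfa, a subunit of the negative elongation factor that is enriched in 2-cell-like cells, was 49.4, 43.6 and 47.3 TPM in KH and 51.1, 55.4 and 95.8 TPM in DNMT3ABKO (group means). Its change was larger in DNMT3ABKO by 0.96 (SE 0.14, limma adjusted p = 0.00207). Dppa2 was 112.4 TPM in KH and 184.2 TPM in DNMT3ABKO at 144 h (log2 difference 0.71, adjusted p = 0.0117), a call lost on leaving out any of the 4 libraries compared. Dppa4 was 150.8 and 182.0 TPM (0.27, adjusted p = 0.00719), a call lost without KH replicate 1 (0.24) or DNMT3ABKO replicate 2 (0.24) at 144 h. Both rose in both lines over 144 h, and the difference between lines in that rise did not pass the test for Dppa2 (0.48, adjusted p = 0.259) or Dppa4 (0.27, adjusted p = 0.0749). It passed for Dppa2 without DNMT3ABKO replicate 2 at 0 h (0.81), and for Dppa4 without either DNMT3ABKO library at 0 h (0.31 and 0.22) or without the filter.

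Of the 9 activators, 4 were higher in DNMT3ABKO at 144 h and 1, Gata2, was lower (11 and 15.5% of all genes). Gata2 differed by -0.49 (limma adjusted p = 0.0112), a call lost without KH replicate 1 (-0.43) or either DNMT3ABKO library at 144 h (-0.51 and -0.48). Over 144 h, 7 rose and 1 fell in DNMT3ABKO (31.4 and 26.2% of all genes), and 5 rose and 1 fell in KH (27.4 and 23.9%). The change was larger in DNMT3ABKO for 2, Duxf3 and Nelfa (4.89% of all genes), of which Duxf3 passed the filter through DNMT3ABKO alone. Without the filter, 9 of 14 were higher and 1 lower at 144 h, and the change was larger in DNMT3ABKO for 8 of 14. Obox3, an Obox homeobox gene, was at 0.0282, 0.367 and 1.52 TPM in DNMT3ABKO and at 0 in both KH libraries at 144 h, and Obox6 at 1.36 TPM in DNMT3ABKO at 144 h against 0.127 TPM in KH. The demethylase genes Tet1 and Tet2 are counted in this list, but whether they activate the programme was not tested. Tet1 and Tet2 rose in both lines, by 1.04 and 0.94 in KH (limma adjusted p = 8.27e-05 and 4.59e-04) and by 0.95 and 1.13 in DNMT3ABKO (adjusted p = 1.04e-04 for each).

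All 32 listed repressors were tested. At 144 h none was higher in DNMT3ABKO and 9 were lower (11 and 15.5% of all genes), with log2 differences of -0.63 to -0.21. The lower ones included Rcor1 (-0.63, limma adjusted p = 0.00539), a partner of the demethylase Kdm1a, the histone H3 lysine 9 methyltransferase genes Ehmt1 (-0.46) and Ehmt2 (-0.34), the RNA-binding protein gene Lin28a (-0.41), the chromatin assembly factor gene Chaf1b (-0.31) and Ctcf (-0.30). The count of 9 was 4 to 10 with single libraries left out. The call of Chaf1b was lost without replicate 2 of either line at 144 h, and that of Ctcf without any of the 4 libraries at 144 h. The change over 144 h differed between lines for 1, Chaf1b (-0.45, SE 0.10, adjusted p = 0.0169), a call lost in a fit of these groups alone. Rif1 and Morc3 rose over 144 h in both lines, by 0.58 and 0.64 in KH and 0.83 and 0.86 in DNMT3ABKO.

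Genes beside the 10 were read out to see whether they moved too. Within 250 kb, 43 other genes were tested, of which 20 share a 50-base word with one of the 10 and 23 share none. All 20 copies were higher in DNMT3ABKO at 144 h. Of the 23 others, 8 were higher and 3 lower (11 and 15.5% of all genes), and 7 had a larger change in DNMT3ABKO (4.89%). The 8 included Tmem92, itself of the 2-cell list, Gm25774, which lies inside Usp17lc, and the annotated pseudogenes Gm11543, Gm11544, Gm21939, Gm1995 and Gm46996. The last of the 8 was Ppp1r9b (0.70). Of the 8, Tmem92, Gm25774, Gm11543 and Gm11544 were at or below 0.424 TPM in every KH library. They passed the filter through DNMT3ABKO alone, so the counts of 8 and 7 are descriptions. Sharing no 50-base word does not show that a gene is unrelated to the 10. Zfp352 had no tested neighbour in this window.

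Within 50 kb of AA623943 lay 3 tested genes without a common 50-base word, at 14.8 to 32.0 kb, and all 3 were higher: Gm11543 (log2 difference 4.90, limma adjusted p = 1.52e-09), Tmem92 (4.10, adjusted p = 1.4e-09) and Gm11544 (2.75, adjusted p = 4.48e-05). Of the 9 such genes at 122.9 to 231.1 kb, 1 was higher and 2 were lower, with differences of -0.62 to 0.70. Gm11543, Tmem92 and Gm11544 were at or below 0.424 TPM in every KH library and passed the filter through DNMT3ABKO alone. Tmem92 is also of the 2-cell list, so the p-values of these 3 genes are descriptions. Tmem92, which encodes a transmembrane protein, was 2.00, 8.47 and 23.4 TPM in DNMT3ABKO, and its early and late ratios were 4.23 and 2.77. Gm11543 was 3.15, 16.8 and 32.3 TPM, with ratios of 5.32 and 1.93. Like AA623943, both had the larger step before 72 h.

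Around BB287469, 3 of 3 tested genes without a common 50-base word were higher (11% of all genes). Among them were Gm21939 (4.54) and Gm1995 (3.31), with early ratios of 2.98 and 2.31. Genes low in KH pass the filter through their DNMT3ABKO values, so nothing is read from this count. Near Tcstv1, none of 4 was higher and 1, the cholesterol synthesis gene Hmgcs1, was lower (-0.83). Near Tcstv3, neither of the 2 was called, including Gm20900 at 12.2 kb (-0.02). The microRNA gene Gm25774 lies inside Usp17lc on the same strand and was at 9.66 TPM in DNMT3ABKO at 144 h (3.25), so reads of both genes cannot be separated.

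**Figure D5:**
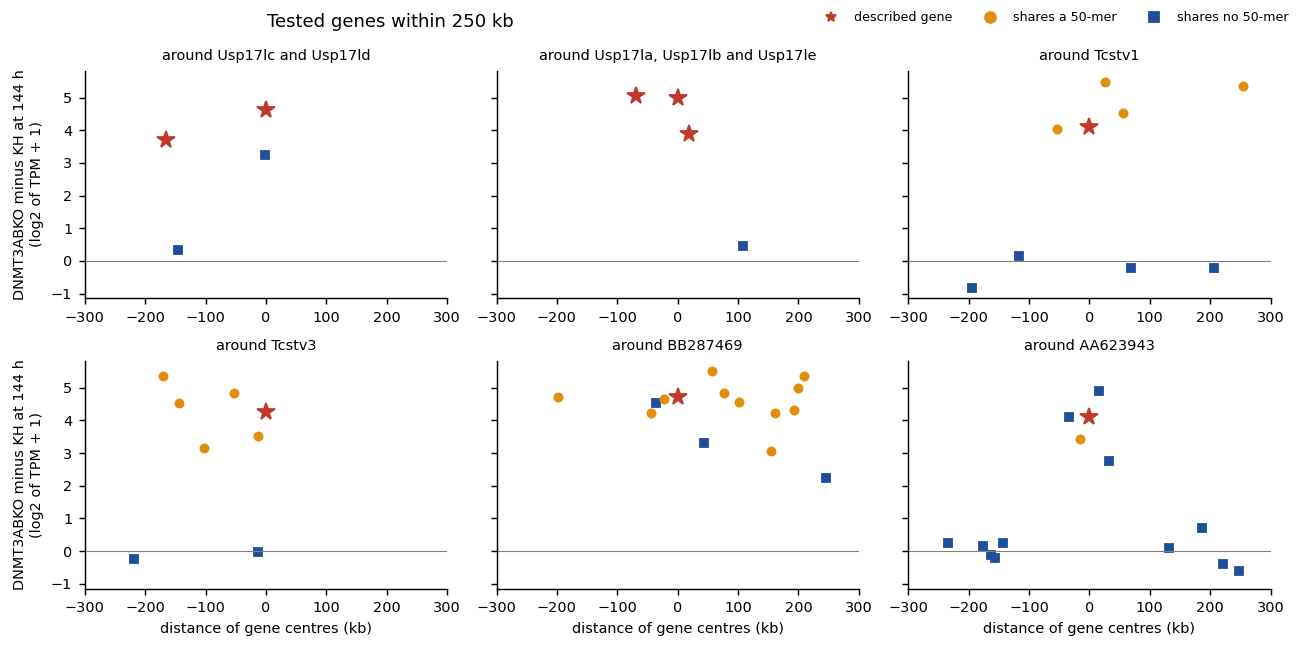
Log2 difference DNMT3ABKO minus KH at 144 h, on the log2(TPM + 1) scale, against the distance of gene centres (kb) at 6 loci. Red stars are the described genes, orange circles tested genes that share a 50-base word with one of them and blue squares tested genes that share none. Next to AA623943 the 3 blue squares within 50 kb lie between 2.75 and 4.90 and the farther ones between -0.62 and 0.70.

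The 10 genes followed each other across libraries. Pearson's r of log2(TPM + 1) over the 12 libraries was 0.97 to 1.00 in the 45 pairs, a description that 6 groups of 2 libraries fix to a large extent. The choice of these genes as high in DNMT3ABKO under mTORi fixes it further. Over the 6 DNMT3ABKO libraries alone r was 0.92 to 1.00. Among 15717 other tested genes, those most like the Usp17l sum were Zscan4d (r = 0.9985), Zscan4-ps2, Zscan4c, Zscan4-ps3 and Zscan4e (0.9976). Those most like the Tcstv sum were Gm20767 (0.9984), Gm12794, AF067061, Gm12800 and Gm21761 (0.9965).

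For Zfp352 they were BC147527 (0.9978), Gm9176, Gm5542, Gm16478 and Gm9121 (0.9955). BC147527 had an early ratio of 1.91 and a late ratio of 5.17, near those of Zfp352. For BB287469 they were its copy Gm4027 (0.9998), Gm6351, Gm13119, Gm2035 and Gm8038 (0.9982). For AA623943 the first was Duxf3 (0.9984), followed by Gm43049, Gm6351, Gm10807 and AW822073 (0.997). Between 158 (Usp17l sum) and 242 (BB287469) genes had r over 0.95, so these names are the top of a large group.

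Markers of other cells moved with time and, in part, with the line. All 12 macrophage markers were tested. At 72 h none was higher and 11 were lower in DNMT3ABKO (9.26 and 10% of all genes), with sums of 170.4 to 174.0 TPM against 253.8 to 260.9 TPM in KH. The direction was the opposite at 144 h, when 7 were higher and none lower (11 and 15.5% of all genes), with sums of 57.2 to 60.1 TPM against 40.1 to 41.3 TPM in KH. C1qb was listed at 0 in both KH libraries at 144 h and at 0.709 and 0.594 TPM in DNMT3ABKO, and Adgre1 was at 0.0143 to 0.408 TPM over these 4 libraries. Of 15 tested fibroblast markers 2 were higher and 1 lower at 144 h, with sums of 480.0 to 496.8 TPM against 602.6 to 706.0 TPM in KH. Fn1 alone was 287.2 TPM of the DNMT3ABKO mean and 483.1 TPM of the KH mean, and the fibroblast marker sum without Fn1 was 197.5 and 204.8 TPM against 162.5 and 180.1 TPM, which turns the direction. Of the 10 ES cell markers 2 were higher and 1 lower, with sums of 6978 to 7024 and 6955 to 7067 TPM. Over 144 h, 14 fibroblast and 12 macrophage markers fell in KH (23.9% of all genes) and 15 and 11 in DNMT3ABKO (26.2%), while the 10 genes rose in DNMT3ABKO. The part of feeder or other cells in the changes was not tested.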

How the data were processed

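Total RNA (ribosomal RNA depleted, ERCC spike-in added) from 12 libraries was processed by the authors, per the study's methods and processing notes, with cutadapt 2.4, STAR (2.7.3a in the notes, another release in the methods) and StringTie 2.0 on mm10 with GENCODE VM19. The deposited values are TPM per gene, which the authors scaled to 1000000 per library, so spike-in scaling and depth are lost and the strand setting is not given in the sources used here.

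Groups came from the labels. The study states in general that the time points of a replicate were processed in parallel. Replicate numbers were therefore taken as pairs within a line, but only in an alternative fit, the replicate block. The main fit, which gave the calls and p-values, held no pairing. Same-numbered libraries did not deviate together (r of deviations from group means -0.104 to 0.1). The genes and lists were chosen with earlier results of these data known. Rows repeating a gene identifier (9 to 16 a library) were summed. log2(TPM + 1) was fitted, for the 15727 genes that averaged 1 TPM or more, with limma 3.58.1 (R 4.3.3; trend, 6 group means, Benjamini-Hochberg over all genes, call at adjusted p under 0.05), since TPM is not suited to the count-based tool of the study. The script was tested on simulated data. Named genes were the 10, up to 6 called genes per list and contrast with the largest difference and no overlap, the 5 with the highest r, and Duxf3, Dppa2, Dppa4, Dnmt3a and Dnmt3b. Tet1, Tet2, Rif1, Morc3, Ddit4l, Hmgcs1, Gm20900, Pramef8 and single marker genes were named after their values were seen. Shared 50-base words were counted over GENCODE M21 transcripts (54409 of 54446 identifiers matched, 53492 with the same coordinates), and promoters came from RefSeq. Python 3.11.15, pandas 2.3.3, NumPy 2.4.6 and SciPy 1.17.1 were used. Alternatives were a pseudocount of 0.1, no filter, median-ratio scaling, only the groups compared, a replicate block and leaving out each library.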

Additional observations from a re-analysis of the deposited data

Results flagged for a closer look

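These genes changed differently over 144 h of mTORi in the 2 lines, by the limma interaction term (difference of the log2 changes, DNMT3ABKO minus KH). In the 2-cell list they were Gm5662 (3.64, adjusted p = 1.97e-06), Gm2056 (3.53, adjusted p = 4.99e-04), Gm21319 (3.49), Gm2016 (3.48), Gm2035 (3.37) and Gm4027 (3.30). Among activators they were Duxf3 (2.51) and Nelfa (0.96), and among repressors Chaf1b (-0.45). Next to the described genes they were Gm21939 (3.10), Gm11543 (2.86), Gm25774 (2.67), Gm1995 (2.63), Tmem92 (2.60) and Gm11544 (2.20). The DNMT3ABKO change was the higher in all of these except Chaf1b. With a pseudocount of 0.1 TPM the calls of Gm2056 (3.10), Gm25774 (3.20) and Gm11544 (4.05) were lost. The 10 described genes are not given here, since they were chosen for it.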

How the results depend on the processing

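Of 177 results recomputed under alternatives (2899 values), 2751 kept their call or stayed within the spread, 93 values moved, 50 lost and 5 gained the call of a named gene, and 0 changed direction. With a pseudocount of 0.1 TPM, genes of the 10 called lower in KH at 72 against 0 h went from 0 to 1. Those called higher in KH went from 3 to 7 (144 against 0 h) and 3 to 7 (144 against 72 h). Those with a different 72 h change went from 9 to 3. Calls at 144 against 0 h in KH went from 13 to 20 in the 2-cell list and from 11 to 18 among neighbours. The Usp17l sum differed between lines by 4.45, 6.34 and 6.54 (from 3.09, 4.57 and 5.91) at 0, 72 and 144 h and changed over 144 h by 3.78 (from 3.68) in DNMT3ABKO and 1.69 (from 0.86) in KH. For the Tcstv sum these were 4.72, 6.04 and 6.45 (from 2.27, 3.35 and 4.94), 3.29 (from 3.04) and 1.57 (from 0.37). With median-ratio scaling the Usp17l sum differed by 3.16 and 4.54 at 0 and 72 h, the Tcstv sum by 4.97 at 144 h. Without the filter, activators called were 10 (from 5) between lines at 144 h, 13 (from 8) over 144 h in DNMT3ABKO and 8 (from 2) for the difference in change. Repressors with a different change were 2 without the filter, 3 with median-ratio scaling and 0 with only the groups compared (from 1), and those changed in DNMT3ABKO 8 with only the groups compared (from 17).

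Leaving out single libraries gave, of the 10 genes, 1 to 3 calls (KH, 144 against 0 h), 0 to 3 (144 against 72 h) and 7 to 10 (72 h difference in change). For activators it gave 2 to 6 (between lines) and 2 to 5 (difference in change), and for repressors 4 to 10 (between lines), 10 to 18 (DNMT3ABKO), 8 to 20 (KH) and 0 to 8 (difference in change). The lone library was then assumed to vary like the other groups.

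The replicate block within each line moved the 72 h difference in change from 9 to 7 of the 10 genes, those at 144 against 72 h in KH from 3 to 2, and the repressors called between lines at 144 h from 9 to 8. It ended the calls of Pramef8 between lines at 144 h and of the Polycomb gene Rnf2 over 144 h in KH (0.43), and of the other genes named by rule it changed none. The causes were not tested. TPM gives no depth, so precision near 0 is unknown.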
